A study of Mus musculus with 1536 samples.

Results

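The 10 genes described here encode the machinery that turns a neuropeptide precursor into a peptide and packs it into dense-core granules, namely Pcsk1, Pcsk2, Cpe, Pam, Scg2, Scg3, Scg5, Chga, Chgb and Pcsk1n. They were chosen by name, and they are 10 of 53263 genes listed and of 25522 genes with a read in at least 3 cells. Their levels are given over 999 serotonin neurons, and were compared within plates between the 599 cells with at least 1 read of Trh, Crh, Sst, Pdyn or Gal and the 400 cells with none. These peptide genes encode the precursors of thyrotropin-releasing hormone, corticotropin-releasing hormone, somatostatin, the dynorphins and galanin.

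A neuropeptide is made as a long precursor that enters the endoplasmic reticulum, passes through the Golgi and is cut inside the maturing granule. The prohormone convertases PC1/3 (Pcsk1) and PC2 (Pcsk2) cut after pairs of basic residues, carboxypeptidase E (Cpe) trims the basic residues left at the new end, and peptidylglycine alpha-amidating monooxygenase (Pam) turns a terminal glycine into the amide that many peptides, TRH, CRH and galanin among them, need for activity. The granins (Chga, Chgb, Scg2) are acidic proteins that fill the granule, Scg3 ties granins to its membrane, Scg5 (7B2) is the chaperone of PC2, and Pcsk1n (proSAAS) is an inhibitor of PC1/3.

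The cells were tdTomato-positive neurons of C57BL/6J mice of 40 to 45 days, of the genotype labelled Sert-tdTomato-Cre crossed with Ai14, in which Cre made under control of the serotonin transporter gene turns on the red reporter. There was no treatment and no other genotype, and a cell that ever used this promoter can carry the reporter. The dissections were the principal dorsal raphe (labelled Principal DR, 290 cells on 5 plates) and the whole dorsal raphe (labelled All DR, 709 cells on 11 plates), the latter with the median raphe included, which is known from the study's methods and not from the labels. Each cell was made into a Smart-seq2 library (full-length cDNA with no molecular identifiers), and the labels give a cell's plate but not its animal, so each dissection was taken as 1 sample, the spread is over plates, and p-values are not given.

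Reads on genes had a median of 827283 per cell (96834 to 2780443) and detected genes a median of 9554. Serotonin markers matched the label. Tph2, the rate-limiting enzyme of serotonin synthesis in neurons, had a read in 999 cells at a mean of 9608 CPM (reads scaled to 1000000 per cell), and the transporter Slc6a4 had one in 997 cells. Markers of glia and vessels were low. The most abundant of the 6 astrocyte genes was Gja1 at 1.84 CPM, of the 6 microglia genes Tmem119 at 0.167 CPM, and of the 6 endothelial genes Itm2a at 3.89 CPM. Of the 6 oligodendrocyte genes, Mbp had 115 CPM while Mog had 0.643 CPM.

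By mean level the 10 genes ranked from 6 to 2123 among the 25522 detected genes. Together they took 1.09% of all reads, a mean of 10890 CPM per cell, with a range over cells of 3244 to 21085 CPM. The secretogranin gene Scg2 (chr1:79434669-79440120, minus strand, build GRCm38) alone had 4644 CPM, which ranked 6 among all genes and 3 when divided by exon length (1847 CPM per kb). Chgb (chr2:132781278-132795079, plus strand) had 2411 CPM and rank 22. Pcsk1n followed with 982 CPM, Cpe with 851 CPM, Chga (chr12:102554969-102565028, plus strand) with 790 CPM and Scg5 with 457 CPM. Pam (chr1:97795114-98095646, minus strand) had 324 CPM, Pcsk1 (chr13:75089826-75134861, plus strand) 202 CPM, Scg3 149 CPM and Pcsk2 (chr2:143546156-143816285, plus strand) 78.1 CPM.

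Levels of different genes can be compared only per length. On that scale Pcsk2 (9.88 CPM per kb), Pam (27.3) and Pcsk1 (36.1) were the lowest of the members. Cpe had 326, Scg5 291 and Chga 287 CPM per kb, values close to each other. Scg3 had 54.6, Pcsk1n 448 and Chgb 880 CPM per kb.

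Most cells held the whole set. Cpe and Chgb had a read in 999 of 999 cells (100%, exact Clopper-Pearson 95% interval 99.6 to 100). The gene found in the fewest cells was Pcsk2, with 946 cells (94.7%, 93.1 to 96.0), and Pcsk1 was found in 987 cells (98.8%, 97.9 to 99.4). A read of all 10 genes was present in 929 cells (93.0%, 91.2 to 94.5). Both convertases were present in 937 cells, Pcsk1 without Pcsk2 in 50, Pcsk2 without Pcsk1 in 9 and neither in 3. A convertase together with Cpe and Pam, the enzymes needed to cut, trim and amidate, was present in 992 cells (99.3%, 98.6 to 99.7). Thinning each cell to 250000 reads, which leaves out 9 shallower cells, gave all 10 genes in 903 of 990 cells (91.2%). These intervals cover counting error only.

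The genes differed far more in how their levels varied from cell to cell. Cpe was the steadiest, with an SD over cells of 0.41 on the log2(CPM + 1) scale, and Scg5 (0.63) and Scg2 (0.69) came next. The median over the 8087 genes with a mean of at least 10 CPM was 1.57, and these genes were not matched to the levels of the members. Pcsk2 (1.86) was above that median, while Chga (1.54), Pcsk1 (1.51) and Pam (1.49) were near it. The SD of plate means was 0.98 for Pam and 0.80 for Pcsk1n, against a median of 0.36 over all genes, and was 0.13 for Scg2. The middle range of Pam over cells, from the lower to the upper quartile, was 104 to 370 CPM, and its highest cell had 9406 CPM.

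Of the members, 3 hold a full cAMP response element (CRE, the letters TGACGTCA, which read the same on both strands) near their start. The 30 bases around it are printed for these members, with the CRE in capitals, and for Chga, whose levels are set against those of Chgb below, around the letters TGACG in capitals, the first part of a CRE (RefSeq promoters, build GRCm38.p6, strand of the gene).
Pcsk1, chr13:75089768-75089797, plus strand: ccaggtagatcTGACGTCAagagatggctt
Scg2, chr1:79440076-79440105, minus strand: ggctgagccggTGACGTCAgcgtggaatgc
Chgb, chr2:132781559-132781588, plus strand: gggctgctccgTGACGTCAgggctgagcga
Chga, chr12:102554886-102554915, plus strand: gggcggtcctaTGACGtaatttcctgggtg

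The element began 78 bases before the RefSeq start in Pcsk1, 68 in Scg2 and 72 in Chgb. The GENCODE starts, used for the gene coordinates above, differ from these. Measured from them, the element began 47 bases before the start in Pcsk1 but 26 bases inside the gene in Scg2 and 292 bases inside it in Chgb. Of the 9 members matched in the RefSeq promoter table (all but Cpe), these 3 held it in the 250 bases before the RefSeq start, and 508 of all 32851 promoters of that length did (1.55%). Among the peptide genes searched (all but Crh), the promoter of Sst held it 48 bases before the RefSeq start and 66 bases inside the GENCODE gene. A match describes letters in a window and says nothing of use in these cells.

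Between the dissections the members went different ways. Differences are of plate means of log2(CPM + 1), Principal DR minus All DR, read beside a median of -0.14 over 8087 genes, and a member counts as higher or lower here when its difference is at least 0.3. Of the 10 members, 3 were higher in Principal DR (Pam, Chga and Pcsk1) and 3 lower (Pcsk1n, Chgb and Cpe), where 18.4% of all genes were higher and 36.0% lower. Plate and dissection cannot be told apart.

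Pam had the widest gap. Its plate mean CPM ran from 298 over a median of 517 to 1286 in the 5 Principal DR plates, and from 121 over 188 to 248 in the 11 All DR plates. No Principal DR plate overlapped an All DR plate, and the difference was 1.75 (8.82 ± 0.86 against 7.07 ± 0.29, SD over plates). The plates SER39 and SER40 were the highest, and without them it was 1.20.

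Chgb went the other way. Its plate means ran from 1140 over 1337 to 2027 CPM in Principal DR and from 2393 over 2589 to 3488 CPM in All DR, again with no overlap, and the difference was -0.88. Cpe was apart as well, at a smaller size of -0.34, with the median gene at -0.14 (651 to 771 CPM against 777 to 1047 CPM). Of all genes, 9.51% had plates that did not overlap, and 3 of the 10 members did.

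The other called members overlapped between dissections. Chga was higher in Principal DR by 0.84, with plate means of 814 to 1130 CPM against 424 to 1017 CPM in All DR. Pcsk1 was higher by 0.41 (186 to 260 CPM against 152 to 230 CPM). Pcsk1n was lower by 0.99 on average, but this rested on SER39 and SER40, whose means on the log2 scale were 7.72 and 7.57 while the other 14 plates were above 9.3. Without these plates the difference was -0.12 and Pcsk1n was not called.

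**Figure D1:**
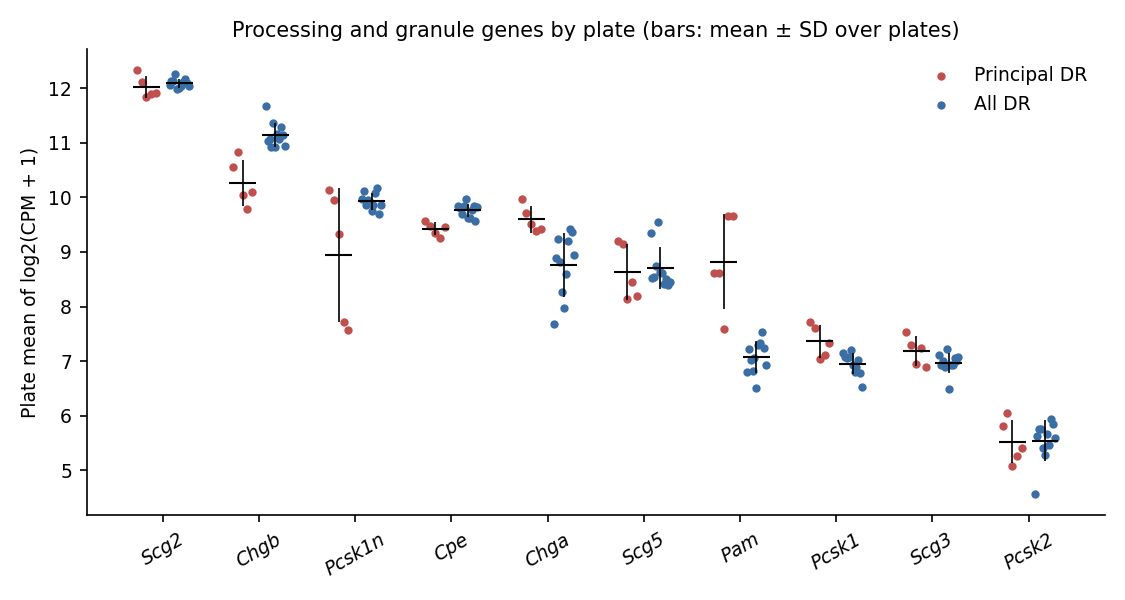
Plate means of log2(CPM + 1) (vertical axis) of the 10 members (horizontal axis, by falling mean CPM), with 1 point per plate, red for the 5 Principal DR plates and blue for the 11 All DR plates, and black bars for the mean and SD over plates. Pam, Chgb and Cpe do not overlap between dissections, and 2 Principal DR plates lie far below the rest for Pcsk1n.

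The comparison between cells with and without a peptide read asks whether cells with a message of these 5 peptide genes hold more of the processing genes. A peptide read here means a read of any of the 5, and the cells without can hold other peptide messages. The 30 other peptide genes summed to a mean of 42.3 CPM with a peptide read and 44.4 CPM without (medians 17.5 and 25.6 CPM). Of the 10 members, 2 were higher in cells with a read of any of the 5 peptide genes, Chga and Pcsk1, and 0 were lower. A member counts as called when the mean of the plate differences is at least 0.3 on the log2(CPM + 1) scale in size and at least 3 of 4 plates share its direction. By that rule 14.1% of 8087 genes were higher and 1.72% lower, and the median gene was higher by 0.11, so that 2 of 10 is near the share of all genes. Cells with a peptide read were somewhat deeper (median 857203 against 782074 reads) and had more detected genes (9791 against 9142.5). After thinning to 250000 reads the same 2 members were called.

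Chga, which encodes chromogranin A, had the largest difference of the members. Its plate mean ran from 622 over 869 to 1402 CPM in cells with a peptide and from 285 over 595 to 1015 CPM in cells without. It was higher in 14 of 16 plates, by 0.90 ± 0.55 (SD over plates), or 0.79 above the median gene, and stood at percentile 98.2 of all genes. When cells were compared within clusters of a plate, described below, the difference was 0.11 (6 of 14 plates) and was not called.

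Pcsk1 had plate means of 118 over 216 to 309 CPM with a peptide and 116 over 152 to 257 CPM without. The 2 ranges overlap over most of their length, yet within plates Pcsk1 was higher in 13 of 16, by 0.54 ± 0.59. Within clusters it was 0.46 (11 of 14 plates), still called. The other convertase, Pcsk2, differed by 0.14 ± 0.72 with 9 of 16 plates above 0, and its mean over plates was lower in CPM with a peptide (70.3 against 92.8 CPM). Its sign thus depended on the scale, and by the log2 ratio of mean CPM it was -0.37 and called lower.

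The remaining members were not called. Scg3 (0.25 ± 0.28), Scg2 (0.13 ± 0.31) and Cpe (0.12 ± 0.13) were each above 0 in 13 of 16 plates, and Pcsk1n (0.19 ± 0.34) in 12, beside 0.11 for the median gene. Pam was above 0 in 9 plates (0.35 ± 0.66). Scg5 (-0.04 ± 0.13) and Chgb (-0.26 ± 0.59) were above 0 in 6 plates each.

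Taken by dissection, the members did not give the same picture, and the difference between dissections was not tested. In the 11 All DR plates, Chga was higher by 1.20 ± 0.32 (11 of 11 plates), where 10.9% of genes were higher, 2.26% lower and the median gene was at 0.07. Pcsk1 differed there by 0.40 ± 0.63 in 8 of 11 plates, short of the share of plates asked, and met the rule without SER48 (0.47), SER55 (0.48) or SER56 (0.52). Scg3 (0.27 ± 0.32, 9 of 11) met it without SER48 (0.31) or SER67 (0.33), and no other member was called. In the 5 Principal DR plates 27.7% of genes were called higher and 4.40% lower, with the median gene at 0.17, and Chga differed by 0.24 ± 0.33 (3 of 5 plates), which became a call without SER13 (0.31) or SER39 (0.32). There Pam was higher by 0.97 ± 0.57 and Pcsk1 by 0.84 ± 0.40, each in 5 of 5 plates, and Chgb was lower by 0.81 ± 0.19 in 5 of 5. Pcsk1n met the rule as well (0.39 ± 0.57, 4 of 5 plates), but this rested on SER40 (1.30), and without that plate it was 0.17 and not called. Pcsk2 (-0.295, not called) was called lower without SER12 (-0.39) or SER40 (-0.44). Averaged over these plates, the CPM of Pcsk1n was 703 with and 691 without a peptide read. In All DR, Pam differed by 0.07 ± 0.50 and Chgb by -0.01 ± 0.54.

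**Figure D2:**
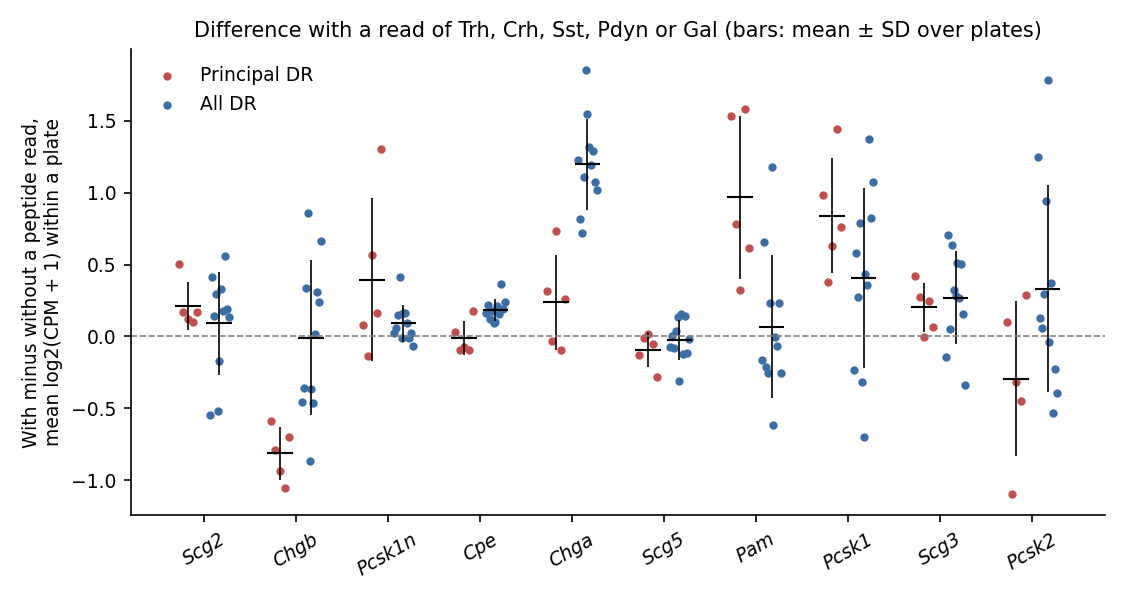
Difference within each plate between cells with and without a read of Trh, Crh, Sst, Pdyn or Gal (vertical axis, mean log2(CPM + 1)) for the 10 members, with 1 point per plate, red for Principal DR and blue for All DR, and black bars for the mean and SD over plates. For Chga the 11 All DR plates lie above 0, and for Chgb the 5 Principal DR plates lie below 0.

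Over both dissections, the members called differed between the peptide genes, apart from Pdyn and Gal. The 5 comparisons share cells, since a cell without 1 peptide can hold another, and are given side by side. For single peptide genes, the share of all genes called was taken over both dissections only. Their calls by dissection have no such share beside them.

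Trh was read in 138 cells, 98 of them from Principal DR. Cells with Trh had more Pam, the amidating enzyme, with plate means of 334 over 623 to 1597 CPM against 127 over 208 to 1250 CPM in cells without. Pam was higher in 13 of 13 plates by 1.69 ± 0.44, beside a median gene of 0.05, and stood at percentile 99.2. It was higher by 1.49 ± 0.39 in Principal DR and by 1.81 ± 0.45 in All DR, so that the difference was as large within each dissection. Pcsk1 was also higher (0.94 ± 0.49, 12 of 13 plates), as was Chga (0.62 ± 0.41, 13 of 13). These 3 of 10 members compare with 13.7% of genes called higher with Trh, and 0 members compare with 6.28% called lower. Chgb differed by -0.58 ± 0.59 (4 plates above 0) and was not called, though it was called lower under 10 of 15 alternative settings. In Principal DR it was lower by 0.82 ± 0.35 in 5 of 5 plates and was called. In All DR, which held the 4 plates above 0, it differed by -0.43 ± 0.68 and was not called.

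The difference of Pam was also taken by the level of Trh, over plates with at least 3 cells of a level. With 10 to under 100 CPM of Trh it was 1.60 ± 0.53 (51 of 56 cells, on 9 plates), and with 100 CPM or more 1.87 ± 0.54 (63 of 69 cells, on 8 plates). Under 10 CPM of Trh, only 7 of 13 cells, on 2 plates, could be compared, and gave 1.37. The difference was smaller within clusters of a plate, where Pam was higher by 0.42 in 6 of 6 plates. The values that follow pool the cells of a cluster over its plates. Plate means of Pam ran from 121 to 1286 CPM, so plate and Trh are mixed in these values. In the cluster with the most Trh cells, led by Prph, Oas1e and Gad1, the 62 cells without Trh averaged 911 CPM (median 588). The 71 cells with Trh averaged 946 CPM of Pam (median 809). In cluster 7, described below, the mean was 497 CPM in 43 cells without Trh and 764 CPM in 32 cells with it. In cluster 11 it was 600 CPM in 7 cells without Trh (median 619) and 642 CPM in 29 with it (median 564). The split by Trh level was chosen after the values were seen.

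Crh, read in 80 cells, went with Pcsk1 and not with Pcsk2. Plate means of Pcsk1 were 261 over 374 to 532 CPM with Crh and 155 over 181 to 253 CPM without, and these ranges did not overlap. Within plates Pcsk1 was higher by 1.18 ± 0.91 in 9 of 10 plates and Pcsk2 lower by 0.97 ± 0.72 in 9 of 10 (plate means 29.3 to 61.7 CPM against 58.8 to 101 CPM). Pcsk1 was higher by 1.66 ± 0.50 in All DR and by 0.70 ± 1.01 in Principal DR. The Principal DR value leaned on SER39 (2.15), and without that plate it was 0.33 and still called. Scg2 was higher by 0.39 ± 0.15 in 10 of 10 plates and Scg3 by 0.31 ± 0.20 in 8 of 10 (not called without SER13, SER40, SER52 or SER64, at 0.285 to 0.298), and Chgb was lower by 0.61 ± 0.40 in 10 of 10. Of all genes, 8.69% were called higher with Crh and 4.32% lower. Within clusters, which left 5 plates, Pcsk1 differed by 0.52 (3 of 5 plates) and was not called.

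Sst was read in 45 cells, and 9 plates could be compared. In All DR, cells with Sst had fewer detected genes (median 8328.5 against 9496) and fewer reads (766132 against 871289). In Principal DR they had 9880 against 9770 detected genes. The median gene with Sst was at -0.44 in All DR and at 0.01 in Principal DR. The part of detected genes in the differences below was not tested. Chga was higher in 9 of 9 (0.89 ± 0.33) and Chgb lower in 8 of 9 (-0.94 ± 1.09), beside 3.78% of genes called higher, 14.9% lower and a median gene of -0.19. The value of Chgb leaned on SER55 (-3.56, from 3 Sst cells), and without that plate it was -0.61 and still called. Within strata of depth Chga was called and Chgb was not. Within clusters the difference of Chga with Sst was -0.34 (1 of 6 plates above 0), and by the same rule it was called lower. Pcsk1 differed by -0.03 ± 1.47 over these plates, the widest spread of any member in the comparisons over both dissections.

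Serotonin genes were lower with Sst as well. Of the 7 serotonin genes, 4 were called lower with Sst (Tph2, Slc6a4, Slc18a2 and Ddc) and 0 higher, with a median of -0.75, and Tph2, the most abundant, differed by -0.76. Their summed level had a mean of 17578 CPM with Sst and 21799 CPM without, and by plate it was lower with Sst in 9 of 9. The summed level of the 6 oligodendrocyte genes had a mean of 1824 CPM with Sst and 85.3 CPM without, but medians of 33.5 and 24.2 CPM. This mean came from SER55, where the 3 Sst cells averaged 25942 CPM around a median of 77.3 CPM. Of the 3 of these genes over 10 CPM, 0 were called, and Mbp differed by 0.03. The 6 astrocyte genes summed to means of 45.4 and 3.40 CPM, with medians of 0, and again the highest plate was SER55 (653 CPM). Microglia genes had 0.116 and 0.542 CPM and endothelial genes 10.4 and 4.56 CPM. The part of these in the differences of Chga and Chgb with Sst was not tested.

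Over both dissections, Pdyn (333 cells) and Gal (361 cells) gave calls for the same genes, Chga and Pcsk1. By dissection they did not. With Pdyn in Principal DR, Pam (0.52), Pcsk1n (0.41), Pcsk1 (0.39) and Chga (0.32) were higher, and Chgb (-0.89) and Pcsk2 (-0.40) lower. The median gene there was at 0.19, and the members called higher stood at percentiles 68.2 (Chga) to 87.2 (Pam) of all genes. The calls of Pcsk1, Chga and Pcsk2 there ended when 1 plate was left out. In All DR, Chga and Pcsk1 were called with Pdyn, beside a median gene of 0.05. With Gal, Pcsk1 (0.71) and Chgb (-0.60) were called in Principal DR, and Chga (0.88) in All DR. The median gene with Gal was at 0.22 in Principal DR and at 0.14 in All DR. With Pdyn over both dissections, Chga was higher by 0.92 ± 0.59 (14 of 15 plates) and Pcsk1 by 0.39 ± 0.58 (13 of 15). There 9.72% of genes were higher and 1.67% lower. Within strata of depth Pcsk1 was not called with Pdyn. With Gal over both dissections, Chga was higher by 0.69 ± 0.46 (15 of 16 plates) and Pcsk1 by 0.42 ± 0.46 (13 of 16). There 20.8% of genes were higher, 0.965% lower and the median gene was 0.16. Within clusters Chga differed by 0.01 with Pdyn and by 0.15 with Gal, and was called with neither, whereas Pcsk1 was called with both (0.67 and 0.41). By the log2 ratio of mean CPM, 0 members were called with Gal.

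**Figure D3:**
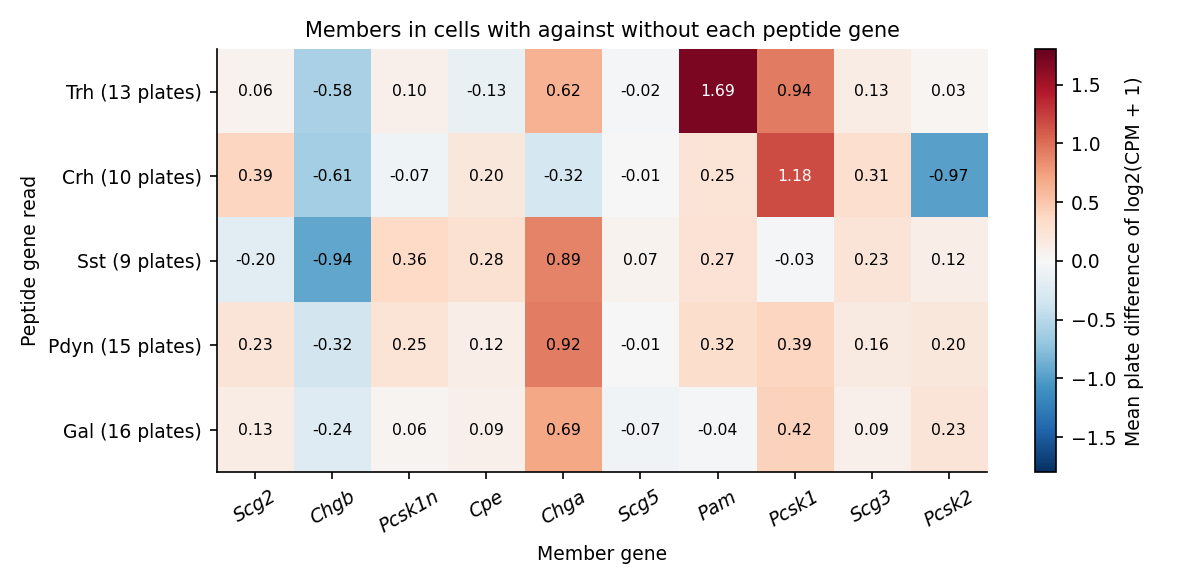
Mean plate difference of log2(CPM + 1) between cells with and without a read of each peptide gene (rows, with the number of plates) for each member (columns), in red where higher and blue where lower. The largest value is that of Pam with Trh (1.69), Pcsk1 is highest with Crh (1.18), and Chgb is below 0 in each row.

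The members were also set against the number of peptide genes in a cell. Over 1, 2 and 3 or more, the difference rose at each step in 4 of the 10 members and fell at each in 2, where 40.5% of 8087 genes rose and 9.37% fell, so that an order by itself is common. Of the cells, 343 had 1 of the 5 peptide genes, 172 had 2 and 84 had 3 or more. Against the cells of the same plate with 0, Pcsk1 differed by 0.26 ± 0.59 with 1, by 0.93 ± 0.40 with 2 and by 1.498 ± 0.69 with 3 or more. In the plates that hold each number, Pcsk1 was above 0 in 14 of 14 with 2 and in 9 of 9 with 3 or more. Over cells pooled from all plates, the mean CPM of Pcsk1 was 158 with 0, 185 with 1, 278 with 2 and 329 with 3 or more. Pooled means mix plate and dissection with the number. A peptide read was present in 75.9% of Principal DR cells and in 53.5% of All DR cells. Pam (0.13, 0.54 and 1.01) and Scg2 (0.04, 0.30 and 0.44) were ordered in the same way, and Scg5 (-0.04, -0.03 and -0.02) barely moved.

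Chgb was ordered downwards, with -0.02 ± 0.52, -0.39 ± 0.61 and -1.09 ± 0.82. Its mean over pooled cells, which mixes plate and dissection with the number, was 2718 CPM with 0 and 1232 CPM with 3 or more. Pcsk2 was ordered downwards as well (0.16 ± 0.73, 0.03 ± 0.89 and -0.28 ± 0.62), with pooled means of 90.6 CPM at 0 and 53.3 CPM at 3 or more. Chga did not follow the number, since it differed by 0.79 ± 0.66 with 1 already and by 0.99 ± 0.86 and 0.87 ± 0.52 after that. The median gene was at 0.07, 0.11 and 0.24, fewer plates enter at the higher numbers, and the spreads of neighbouring steps overlap.

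**Figure D4:**
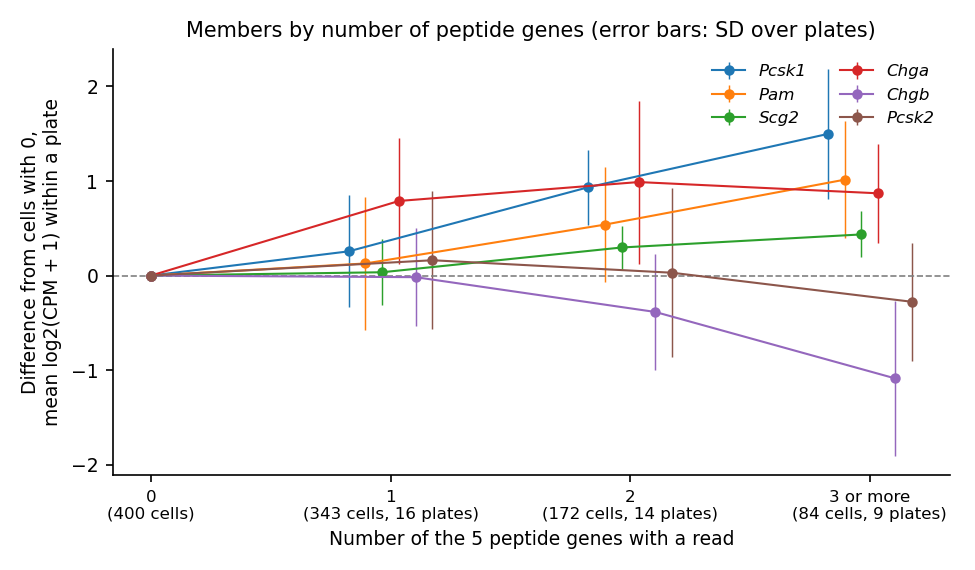
Difference from cells with 0 peptide genes in the same plate (vertical axis, mean log2(CPM + 1)) against the number of the 5 peptide genes with a read (horizontal axis, with cells and plates) for 6 members, with points for the mean and bars for the SD over plates. Pcsk1 reaches 1.498 and Chgb -1.09 at 3 or more, while Chga stays between 0.79 and 0.99.

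The members did not vary as 1 block. Over the 999 cells, after subtracting plate means, the median correlation of the 45 pairs of members was 0.04, against 0.05 over all pairs of the 8087 genes, and 60.0% of member pairs were above 0 against 83.8%, while 6.67% of member pairs were above 0.3 against 1.06%. Cells share plates, depth and dissociation, so these are descriptions. The closest pairs were Pcsk1 with Scg2 (r = 0.44), Pcsk2 with Chga (0.43, or 0.45 before subtracting plate means) and Chga with Pcsk1n (0.31), the 3 pairs above 0.3. The convertases were weakly opposed to each other (Pcsk1 with Pcsk2, -0.19), as was Pcsk2 to Chgb (-0.19).

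Per kb of exon, the level of Pcsk1 exceeded that of Pcsk2 in 801 of 999 cells (80.2%, exact 95% interval 77.6 to 82.6). The share was 90.3% (86.3 to 93.5) in Principal DR and 76.0% (72.7 to 79.1) in All DR.

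Of single genes, the nearest to Pam over all cells within plates was Pcsk6 (r = 0.45), a further convertase, and Trh was the third nearest (0.41). Chga and Pcsk2 shared their nearest gene, the GDNF receptor gene Gfra1 (r = 0.66 and 0.52). Scg2 was nearest to Aplp1 (0.68) and had Slc6a4 among its 3 nearest (0.66). The genes most like the members as a set, by correlation with their mean z-score, were Maged1 (0.56), Aplp1 (0.54), B4gat1 (0.54), Pdia6 (0.54), Clptm1 (0.53), X9530068E07Rik (0.53, as the table spells it), Slc6a4 (0.50), Sult4a1, Nsg1 (both 0.50) and Gde1 (0.49).

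Clusters separated the members into steady and variable genes. Cells were clustered without any gene of the lists used here, which gave 13 clusters of 23 to 133 cells, called by number and by their leading genes. Between the lowest and the highest cluster mean, Cpe differed 1.41-fold, Scg5 1.55-fold, Pcsk1n 1.60-fold, Scg3 1.69-fold and Scg2 2.07-fold. The median over the 8087 genes on the log2 scale was 0.86, and these members lay at 0.50 to 1.05. The other 5 lay well above it, with Pcsk2 at 4.94, Chga at 4.17, Pam at 3.03, Pcsk1 at 2.57 and Chgb at 2.55. Pcsk1n depended on the clustering, and when all genes were used it ran from 290 to 1164 CPM. This was 4.01-fold or 2.00 on the log2 scale, beside a median gene of 0.96. Earlier results of these data showed clusters from all genes to split by plate. The cluster with the lowest Pcsk1n also had the highest Pam (978 CPM), and the plates SER39 and SER40 had 284 and 251 CPM of Pcsk1n. The part of plates in this range was not tested.

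The chromogranins were farthest apart in cluster 4, led by Piezo2, Pter and C1ql3, with 111 cells of which 16 had a peptide read. Its mean was 86.5 CPM of Chga, the lowest of the 13 clusters, and 4484 CPM of Chgb, the highest. Pcsk2 was low there too, at 18.4 CPM with a read in 77.5% of cells. The highest Chga, 1569 CPM, was in cluster 3, led by Cckar, Tmeff2 and Npy2r, where 104 of 119 cells had a peptide read and 94 had Pdyn. Without the cells of cluster 4 the any-peptide difference of Chga was 0.43 (13 of 16 plates, still called) and that of Pcsk1 0.80.

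Pcsk2 spanned the widest range. It was at 5.78 CPM in cluster 13 (Tecrl, S1pr3, Tacr3, 23 cells), where Chga was low as well (147 CPM) and Pcsk1 was not (250 CPM), and at 208 CPM in cluster 10 (Grik1, Spp1, Apoe, 45 cells), which had the lowest Chgb (767 CPM). Peptide reads were rare in both, with 2 of 23 and 6 of 45 cells.

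Pcsk1 was highest, at 498 CPM, in cluster 12 (Wif1, C1ql2), where 21 of 26 cells had Crh, and Scg2 was highest there too (6748 CPM). Both were lowest in cluster 2 (Sostdc1, Pth2r, Ceacam10), with 82.9 and 3262 CPM, where 44 of 126 cells had a peptide read. Pam was highest in the 3 clusters with the largest shares of Trh cells. It had 930 CPM in cluster 1 (Prph, Oas1e, Gad1, 71 of 133 cells with Trh), 634 CPM in cluster 11 (Sox14, Arhgdib, Asb4, 29 of 36) and 611 CPM in cluster 7 (Smoc2, Plpp4, Ret, 32 of 75). By mean, cluster 8 (Npas1, Dlk1, Sema5a) came next with 412 CPM, although 0 of its 54 cells had a Trh read. If 0 allows 3 counts, the share of its cells with a read could be up to 5.56%, which covers counting error only. By median cluster 8 had 179 CPM, under the 313 CPM of cluster 13. Pam was at 112.6 CPM in cluster 5 (Rorb, Wnt4, Nefm), where 0 of 108 cells had a Trh read (up to 2.78% by the same rule). Of the cells of cluster 1, 113 of 133 came from Principal DR, so that for Pam the cluster and the dissection overlap, while cluster 11 had 2 of 36 from it.

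**Figure D5:**
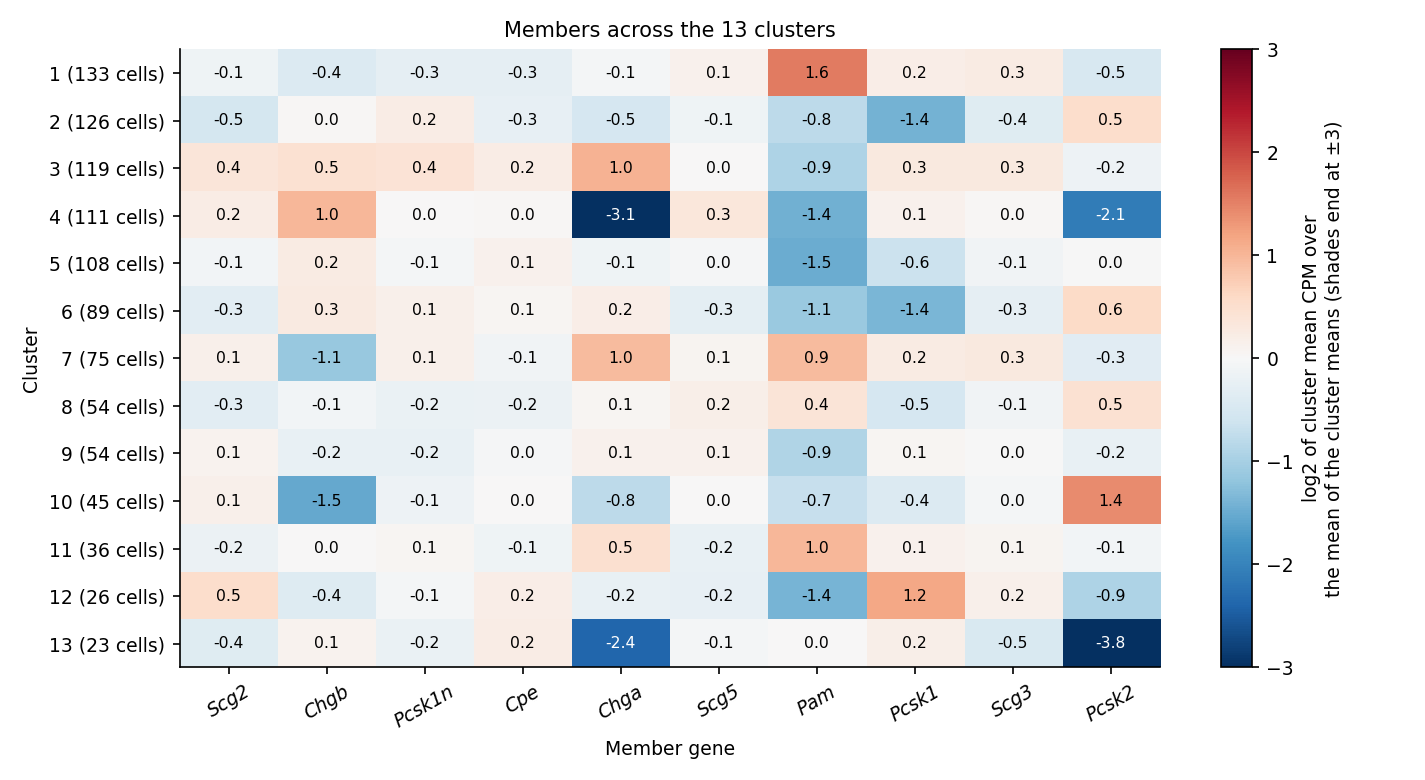
Mean CPM of each member (columns) in each of the 13 clusters (rows, with their number of cells), as log2 of the ratio to the mean of the cluster means, in red where higher and blue where lower. Chga is low in clusters 4 and 13 and Pcsk2 lowest in cluster 13, Pam is high in clusters 1, 7 and 11, and Cpe, Scg5 and Scg3 vary little, as does Pcsk1n in this clustering.

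Other genes of the pathway, taken from lists chosen with earlier results of these data known, were read in the same any-peptide comparison, where 14.1% of all genes were higher, 1.72% lower and the median gene was at 0.11. Of 11 other convertase and trimming genes with a mean of at least 10 CPM, 6 were called higher and 0 lower, with a median of 0.35. Ctsl, the protease cathepsin L, was the most abundant at 406 CPM and was higher in 16 of 16 plates (0.91 ± 0.29). Pcsk6 was higher in 16 of 16 as well (1.55 ± 0.89) and Pcsk5 in 14 of 16 (1.04 ± 0.99). Qpct, which forms the pyroglutamate end that TRH carries, was higher by 0.39 ± 0.30 (14 of 16), Cyb561, a granule membrane protein that passes on electrons from ascorbate, by 0.54 ± 0.51 (14 of 16), and the carboxypeptidase gene Cpd by 0.31 ± 0.52 (12 of 16).

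Genes of granule formation and release had 2 of 15 called higher and 0 lower (median 0.14), beside 14.1% and 1.72% of all genes. These were the small GTPase gene Rab27b (0.56 ± 0.45, 14 of 16 plates) and Ccdc186 (0.33 ± 0.37, 12 of 16), while Rab3a, the most abundant at 1132 CPM, differed by 0.12 ± 0.28. Of 12 genes of entry into the endoplasmic reticulum, 1 was higher, Sec61a1 of the translocon (0.51 ± 0.52), and Spcs2, the most abundant, differed by 0.02 ± 0.30. Of 12 genes of clear synaptic vesicles, 0 were higher and 2 lower, Rab3c (-0.52 ± 0.35, above 0 in 1 of 16 plates) and Cplx1 (-0.34 ± 0.33), with a median of 0.01, and Snap25 differed by 0.04 ± 0.17. The only other peptide gene with a mean of at least 10 CPM, Adcyap1, differed by -0.37 ± 1.07.

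Some genes of cell identity and state were higher in the same comparison, in which 14.1% of all genes were. Of 7 serotonin genes, 2 were higher with a peptide read, Slc6a4 (0.39 ± 0.23, 14 of 16 plates) and Maob (0.75 ± 1.00, 12 of 16). The other 5 were not called, Tph2 at 0.25 ± 0.28 among them. Of 5 immediate early genes, 2 were higher, Fos (0.78 ± 0.70) and Nr4a1 (0.38 ± 0.77), and Jun (0.15), Junb (-0.03) and Egr1 (-0.15) were not called. Of the 3 oligodendrocyte genes over 10 CPM, 0 were called, and their most abundant, Mbp, differed by -0.07 ± 1.01. The summed level of the 6 oligodendrocyte genes had a median over cells of 23.5 CPM with and 25.4 CPM without a peptide read. The means were 196 and 115 CPM, the former including the 3 Sst cells of SER55, which averaged 25942 CPM. The sums of the astrocyte, microglia and endothelial genes had means of 6.18, 0.343 and 5.99 CPM with a peptide read and 3.97, 0.793 and 3.07 CPM without. The part of identity, state and other cells in the differences of the members was not tested.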

How the data were processed

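Single tdTomato-positive cells were sorted into wells, made into Smart-seq2 libraries and sequenced as 75-base read pairs. According to the submitters' processing notes and the study's methods, the authors used bcl2fastq 2.19.0.316, aligned with STAR 2.6.1a to mm10 (GRCm38), counted reads on genes with HTSeq 0.11.2 without regard to strand, and deposited CPM (counts scaled to 1000000 reads per cell). The version of their annotation is not given in the sources used here. Each CPM value was a whole number of reads within 0.001 (100% of values), so reads were recovered. A count test was not run on them, because the labels name no animal and cells are not replicates. The table held 999 of 1536 labelled cells, and 537 were not analysed here.

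Differences were of mean log2(CPM + 1) between cells within a plate, over plates with at least 3 cells in each set, and were fitted on all 25522 genes with a read in 3 cells. The share of genes called used the 8087 with a mean of at least 10 CPM. A fold on this scale understates changes of low genes. Clusters were made in R 4.3.3 with Seurat 5.3.0 (2000 variable genes, 20 components, 20 neighbours, resolution 1, random seed 1), with 128 detected genes of the lists held out. Cells were sorted singly and no doublet caller was run. The 3 Sst cells of SER55 averaged 25942 CPM of oligodendrocyte genes around a median of 77.3 CPM. Whether wells held material of other cells was not tested. Other values used Python 3.11.15, NumPy 2.4.6, SciPy 1.17.1, pandas 2.3.3 and matplotlib 3.10.9. Gene coordinates and exon lengths came from GENCODE M21 and promoters from RefSeq, both on GRCm38. Steps were tested on simulated data.

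The members, lists and rules were chosen with earlier results of these data known. Genes named are the members, the 5 peptide genes, the called and the most abundant genes of each list (Mog was added after its value was seen), the genes most like the members, the genes nearest to a member and the 3 leading genes of each cluster, of which 1 gene is not reported here. Other genes overlap Pcsk2 (the antisense Pcsk2os1 and Pcsk2os2), Pcsk1n (Eras), Scg3 (Gm37871) and Pam (5 genes, the most abundant B230216N24Rik at 10.2 CPM), so that the reads of these pairs are uncertain. Reads without molecular identifiers are not independent molecules, so intervals cover counting error only.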

Additional observations from a re-analysis of the deposited data

How the results depend on the processing

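No paired analysis was possible because replicate numbers only name cells and tie no cells to a mouse; the peptide comparisons were made within plates. The any-peptide calls of Pcsk1 and Chga were kept under the planned changes of the read or CPM threshold for a peptide, thinning, depth, pseudocount, total and cells per plate. The number of members called with any peptide was 2, and became 4 by the ratio of mean CPM (Pam higher and Pcsk2 lower were added), 1 within clusters (Pcsk1, where 4.82% of genes were higher and 0.433% lower in place of 14.1% and 1.72%) and 4 without the cells of cluster 4, an alternative chosen after seeing the data (Scg3 higher and Pcsk2 lower were added). It was 3 against cells without other peptides (Scg2 higher was added), where 8 of 16 plates could be compared and 25.7% of genes were called. With Trh it went from 3 to 6 within clusters and to 5 where cells without also lacked the other peptides, and Chgb was called lower in 10 of 15 alternatives, which gave 4 members in 8 of them. With Crh it was 4 to 7 elsewhere (7 within strata of depth, with Pam higher and Chga lower added) and went from 5 to 3 within clusters, where Scg3, called higher, became -0.035. With Sst it went from 2 to 4 after thinning, to 1 within strata of depth (Chgb was no longer called) and to 4 against cells without other peptides. It was 5 without the plates SER39 and SER40 (also chosen after seeing the data). Chga, called higher with Sst, became -0.34 within clusters and was called lower there. With Pdyn the number went from 2 to 1 within strata of depth (Pcsk1 was no longer called) and to 5 against cells without other peptides. With Gal it went from 2 to 4 within strata of depth, 1 with a pseudocount of 10, 0 by the ratio of mean CPM, 1 within clusters and 1 against cells without other peptides. Genes called in either direction moved too. They were 15.8% with any peptide and became 7.42% by the ratio of mean CPM, 5.26% within clusters and 16.7% without cluster 4. Within clusters they went from 20.0% to 20.6% with Trh, 13.0% to 23.1% with Crh and 21.7% to 14.3% with Gal. Against cells without other peptides they became 26.4% with Trh, 24.6% with Sst (from 18.7%), 21.7% with Pdyn (from 11.4%) and 30.8% with Gal. Within strata of depth they were 18.5% with Sst, 10.4% with Pdyn and 16.7% with Gal, with Sst 18.7% after thinning and 17.4% without SER39 and SER40, and with Gal 4.02% with a pseudocount of 10 and 5.74% by the ratio of mean CPM. The cause of these shifts was not tested.

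Leaving out each plate in turn gave 2 to 2 members with any peptide, 3 to 4 with Trh, 4 to 6 with Crh, 2 to 4 with Sst (4 without SER12 and without SER40), 2 to 3 with Pdyn, 2 to 3 with Gal and 6 to 6 between dissections. Members added by leaving out 1 plate were Chgb lower with Trh (SER51, SER55, SER63 or SER64), Chga lower with Crh (SER25, SER60 or SER64), Pam higher with Pdyn (SER51, SER52, SER57 or SER60), Pcsk2 higher with Gal (SER67) and, with Sst, Cpe (SER12 or SER13), Pcsk1n (SER12, SER55 or SER64), Pam (SER25 or SER40) and Scg3 (SER40) higher. That share with any peptide became 7.37% when every gene detected in 3 cells was included. Without the 100 most abundant genes in the total, the median gene was at 0.13 in place of 0.11. The highest over the lowest cluster on the log2 scale was 1.70 to 2.94 for Pcsk1 and up to 4.71 for Chgb under other clusterings, and 2.00 in place of 0.67 for Pcsk1n when all genes were clustered. Pcsk2 had at least 5 reads in 91.6% of cells, the lowest share of the members, and its level had a correlation of -0.01 with log2 reads over the 999 cells. Plates are not animals, so the spread over plates does not measure that between mice.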

Other observations

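Among the other peptide genes, Ghrh, named after its values were seen, was read in 311 cells at a mean of 2.72 CPM, under the 10 CPM asked of the genes compared. It had 4.07 CPM in cells with a read of any of the 5 peptide genes and 0.71 CPM in cells without, and was higher in 16 of 16 plates (1.08 ± 0.40). Of the 30 other peptide genes, 4 (Pmch, Nps, Kiss1 and Uts2b) were listed at 0 in each of the 999 cells.

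Scg5, the chaperone gene of PC2, was not called with any of the 5 peptide genes, and its plate means ranged from 294 to 760 CPM. The highest plates were SER55 (9.54 on the log2 scale) and SER48 (9.35) of All DR and SER12 (9.20) and SER13 (9.14) of Principal DR. SER48 and SER55 were also among the 3 lowest All DR plates for Chga, at 7.67 and 8.27 beside a median of 8.89 over the All DR plates. SER12 and SER13 went the other way. Their Chga means, 9.97 and 9.71, were the highest of the Principal DR plates (median 9.505) and above each All DR plate (up to 9.41). High Scg5 thus did not go with low Chga on these plates as a set. Whether preparation or the cells caught on these plates went with their levels of Scg5 and Chga was not tested.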
